A study of Mus musculus with 2 samples.

Results

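The fibroblast growth factor (FGF) genes described here are 10 of the 21368 genes named on the array: the 7 ligands Fgf1, Fgf2, Fgf9, Fgf10, Fgf13, Fgf16 and Fgf21 and the 3 receptors Fgfr1, Fgfr2 and Fgfr3. Every non-control probe whose RefSeq accession belongs to one of them was used, which gave 16 probes. That probe rule uses no measured value, but the 10 genes were chosen with earlier results of these data known. The study asked which signalling goes with remodelling of the heart in mice that express WRN-K577M, and measured total heart RNA on 2 Agilent 1-colour arrays, 1 for each group. The control is labelled C57BL6. The other sample, called the transgenic heart below, is of the genotype B6.Cg-Tg (CAG-WRN*K577M), line 5025Wcl/Mmmh, on the same labelled background. Its transgene encodes a mutant of the helicase WRN and is driven by CAG, a promoter active in most cell types and not only in cardiomyocytes. The sources used here do not give age, sex, the number of animals behind each RNA or the meaning of ND in both titles. No ratio below has a replicate check or a p-value, and the genotypes cannot be told apart from any other difference between these samples.

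Most FGFs are secreted, bind heparan sulfate on nearby cells and activate receptor tyrosine kinases of the FGFR family, which signal through the adaptor FRS2 to Ras and ERK and through phosphoinositide 3-kinase to Akt. Endocrine members such as FGF21 instead need a Klotho protein as co-receptor, and the FGF homologous factors, such as FGF13 and FGF12, stay inside the cell and bind voltage-gated sodium channels. In the heart, paracrine FGFs of the epicardium, endocardium and myocardium act on cardiomyocyte growth and on vessels during development and after injury, and FGF21 is known as a factor made under metabolic and mitochondrial stress.

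In these samples the receptor gene Fgfr3 and the ligand gene Fgf9 had lower levels in the transgenic heart, 1.74-fold and 1.41-fold. Fgf21 was detected there and not in the control, with a ratio of at least 3.18-fold. Fgf1, Fgf2, Fgf13, Fgfr1 and Fgfr2 were within 1.14-fold of equal by their brightest probes. Fgf10 was near the background on both arrays and Fgf16 was not detected on either.

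A level is the log2 of the processed signal over the 75th percentile of its array (a signal of 256 for the control, 210 for the transgenic heart). Each log2 ratio subtracts the control level from the transgenic one. A gene is called measured if a probe was well above background on both arrays by the scanner software, and it takes the value of its brightest such probe. Where a gene was well above background on 1 array only, the ratio is a bound: the brighter level is set against the dimmer one, or against the lowest level well above background on the dimmer array where that is higher (-4.73 for the control, -4.42 for the transgenic heart). Levels of different probes depend on their sequences and are not compared with one another, so the members are not ranked by abundance.

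Of the 10 members, 7 were measured, 1 had a bound and 2 were not detected. None of the 7 measured members was at least 2-fold different, where 5.39% of the 14003 measured genes were, and 1 of the 7 was at least 1.5-fold different, where 15.9% were. With the bound included, 1 of 8 members was at least 2-fold different, against 6.44% of 14952 genes. The median log2 ratio of the 7 was -0.02, with 3 above and 4 below 0, beside a median of 0.02 over all measured genes. The share of members past either fold describes a handful of genes and is not read as particular to the family.

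**Figure D1:**
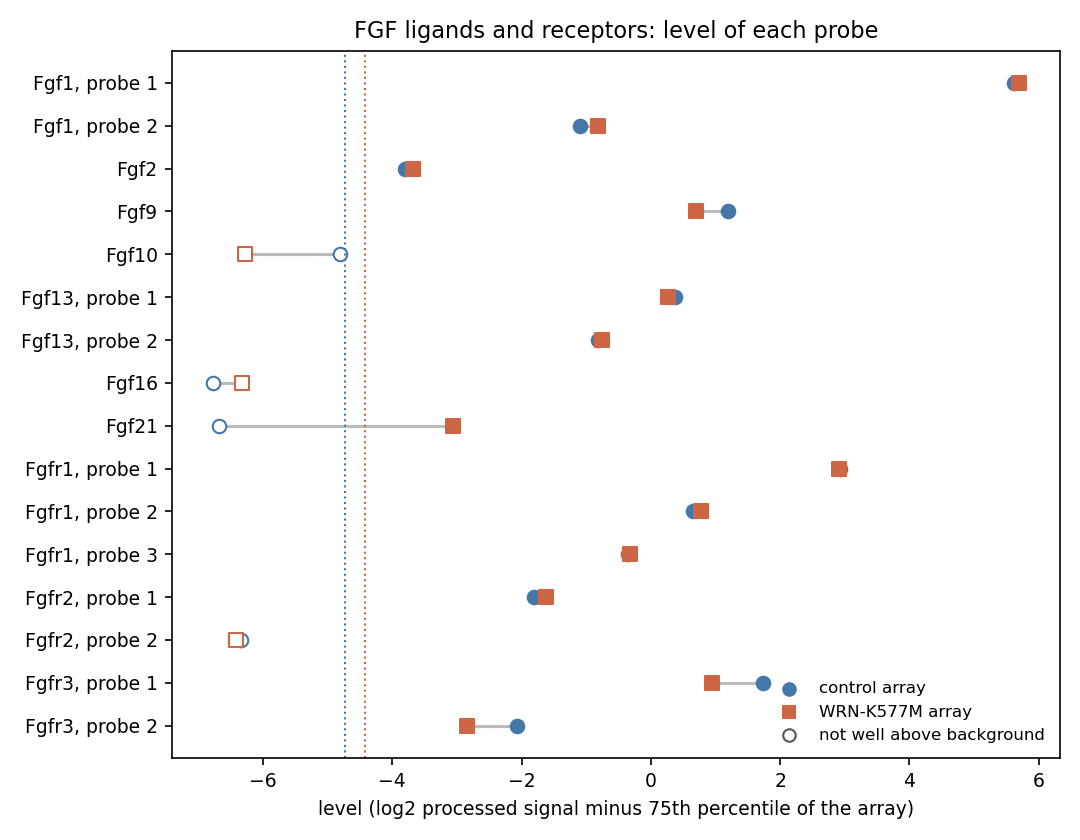
Level of each of the 16 member probes (horizontal axis, log2 of the signal over the 75th percentile) on the control array (blue circles) and the WRN-K577M array (orange squares), with open symbols for probes not well above background and dotted lines at the lowest level well above background of each array. Both Fgfr3 probes and the Fgf9 probe lie to the left in the WRN-K577M heart, the Fgf21 probe is above background there only, and the remaining measured probes nearly coincide.

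The labelled tissue was checked against cardiomyocyte markers: all 16 were well above background on both arrays, with log2 ratios of -0.39 to 0.27 and a summed signal, in units of the array's 75th percentile, of 8045 in the control and 8937 in the transgenic heart. Markers of some other cell types were lower in the transgenic heart, and those of others were not. Of 14 lung epithelial markers 2 lacked a signal well above background in the control, 11 in the transgenic heart, where Sftpc was at least 1336-fold lower, and the summed signal was 144 against 11.4. Of 14 measured atrial markers 7 were at least 2-fold lower, where 484 of all 14003 measured genes were. Sln was lowest (-9.41), and the sums were 678 and 179. Of 13 fibroblast markers 8 were at least 2-fold lower, Col3a1 most (-2.29), with sums of 500 and 405. Endothelial markers had a median of -0.01 and sums of 349 and 386. The median was 0.24 for smooth muscle and pericyte markers and 0.20 for epicardial and mesothelial markers. The part of these tissues in the values of Fgf9, Fgf12, Fgf18, Fgfr3, Fgfr4 and the co-receptors was not tested. In bulk RNA, fewer cells of a type and less RNA per cell cannot be told apart.

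Fgf21 was read by a single spot of the probe A_52_P235347. Its raw signal was 39 against a local background of 46 in the control, and 68 against 47 in the transgenic heart, which left processed signals of 2.50 and 25.1. The control spot was thus dimmer than its surround and the transgenic spot brighter. The level in the transgenic heart was -3.06, and the bound was at least 3.18-fold higher (log2 1.67). Of the 209 genes that were well above background on the transgenic array only, 33.5% had a bound of at least 2-fold, and that of Fgf21 was rank 23 among them. The software error of the log2 ratio for this spot was 1.16, the widest among the members that have a value. With normexp background correction, in which a constant is added to each signal, the bound was a log2 ratio of 0.67, under 2-fold, and under a stricter filter on dim probes Fgf21 was not counted. The bound rests on 1 dim spot per array.

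The co-receptor of FGF21, beta-Klotho (Klb), was not detected on either array, and neither was Klotho (Kl), the co-receptor of FGF23. A list of 17 genes around Fgf21 holds its known regulators and genes that respond with it in fasting and in the integrated stress response. Of these, 16 were measured, 12 of them above 0, 5 at least 2-fold higher and none at least 2-fold lower, where 271 of all 14003 measured genes were at least 2-fold higher. After normexp 4 were. The list was chosen with earlier results of these data known, so these counts describe it and do not test for a shift. The median log2 ratio was 0.35, and it lay between 0.29 and 0.51 in all alternatives run. The 5 were Angptl4, an inhibitor of lipoprotein lipase (2.07), Pdk4, a kinase that restrains pyruvate oxidation (1.56), the stress cytokine Gdf15 (1.42), the glutathione-degrading enzyme Chac1 (1.33) and the pseudokinase Trib3 (1.09). Asparagine synthetase, Asns, a target of the stress factor ATF4, had a log2 ratio of 0.79. The regulators in the list had mixed ratios. Ppara, the fatty acid receptor that drives Fgf21 in liver, had a log2 ratio of -0.50, its partner Rxra -0.11, the coactivator Ppargc1a 0.28 and Atf4 0.08, and Creb3l3 was not detected. Ddit3, which encodes the stress factor CHOP, had -0.96, and with the deposited matrix it was past 2-fold.

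Because Fgf21 is the member whose detection differed and ATF4 is a known activator of it, the 250 bases before its start are shown, taken from RefSeq (GRCm38.p6, chr7:45615491-45615740, minus strand, 5′ to 3′ along the gene). Capitals mark the single match to TGATGNAA or its reverse complement TTNCATCA, the core of the composite C/EBP-ATF element, which was searched on both strands.
Fgf21: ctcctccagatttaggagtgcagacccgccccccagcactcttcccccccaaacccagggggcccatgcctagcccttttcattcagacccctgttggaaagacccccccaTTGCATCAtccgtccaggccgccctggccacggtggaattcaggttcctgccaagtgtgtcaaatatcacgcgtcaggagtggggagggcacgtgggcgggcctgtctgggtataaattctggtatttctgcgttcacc
The match lies on the strand opposite to the gene, 139 to 132 bases before the start. Of 32851 mouse promoters of this length, 1134 (3.45%) hold such a match. Among the members, 7 had a promoter entry and Fgf21 was the sole one with a match. In the list around Fgf21, 14 genes had an entry and 2 of them, Chac1 and Asns, held a match, while Trib3 held none in this window. Their matches are shown with the bases around them, for Chac1 at chr2:119351033-119351072 on the plus strand and for Asns at chr6:7693210-7693248 on the minus strand.
Chac1: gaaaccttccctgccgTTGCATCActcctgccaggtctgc
Asns: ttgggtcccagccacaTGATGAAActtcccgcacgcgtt
The match in Chac1 lies on the strand opposite to the gene, 193 to 186 bases before the start, with the same 8 letters as in Fgf21. That in Asns lies on the gene's own strand, 23 to 16 bases before the start. A match is a stretch of letters, and binding was not measured here. No other element was searched, and the part of ATF4 in the Fgf21 value was not tested.

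Among the paracrine ligands, Fgf9, a growth factor of the epicardium and endocardium that acts on the myocardium, had 1 probe, A_55_P2015994. Its processed signal was 588 in the control and 341 in the transgenic heart, at levels of 1.20 and 0.70. The log2 ratio was -0.50 with a software error of 0.20, a 1.41-fold lower level. A ratio at least this far from 0 was found for 20.7% of all measured genes, and the SD of the log2 ratio was 0.54 over the 1823 genes within 0.5 of its level. Fgf9 stayed below 0 in all 10 alternatives, from -0.55 to -0.42. Those that change the filter or average a gene's probes left the value of its 1 probe as reported. Scaling on detected probes or on the median and the deposited matrix shift the ratios of all genes by the same amount, so they are no separate check. The value is larger than the measurement error and within the ordinary spread of genes between these samples.

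Fgf1, an acidic FGF that binds all the FGF receptors and is abundant in cardiomyocytes, was read by 2 probes. The brighter, A_55_P2047188, had signals of 12588 in the control and 10916 in the transgenic heart, levels of 5.62 and 5.70 and a log2 ratio of 0.08 (software error 0.20). The dimmer, A_52_P538673, had signals of 119 on both arrays and a ratio of 0.29 (0.21). Both are within 1.22-fold of equal, and the sign is not fixed: 3 of the 10 alternatives put Fgf1 below 0, the lowest at -0.06.

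Fgf2, the basic FGF that cardiomyocytes and fibroblasts release on injury, was read by a probe printed at 10 spots, A_51_P399845. In the control the processed signals ran from 15.1 through a median of 18.1 to 27.0, and in the transgenic heart from 12.6 through 17.5 to 20.6. The spots of the arrays overlapped widely. All 10 were well above background on both arrays, at mean levels of -3.80 and -3.68, and the mean log2 ratio was 0.12. Single spots ranged from -0.65 to 0.46 (SD 0.33), 8 of them above 0 and 2 below. Across 255 probes printed several times, with all usable spots well above background on both arrays, the pooled SD was 0.11 (2 SD make 1.17-fold). The software error of the Fgf2 ratio was 0.34. In 1 of 9 alternatives its ratio was below 0 (-0.02).

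Fgf10, which signals from mesenchyme to epithelium and also marks second heart field progenitors, was likewise printed at 10 spots, of the probe A_52_P42269. Its processed signals ran from 6.01 through a median of 8.74 to 12.5 in the control and from 2.37 through 2.60 to 4.25 in the transgenic heart. These ranges did not overlap, but most of the signals are not above background and no direction is read from them. The raw signals were close to the surround: a median of 47 against a local background of 43.5 in the control, and 40 against 44.5 in the transgenic heart. Only 3 of the 10 spots in the control and 0 in the transgenic heart were well above background, so the gene counts as not detected and no fold is given. If a probe counted as soon as any of its spots was well above background, a rule added after the data were seen, Fgf10 would have a bound of -0.63 on the log2 scale.

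Fgf16, a relative of Fgf9 made by postnatal cardiomyocytes, had a single spot of the probe A_55_P2048134 with signals of 2.33 and 2.61. Its raw signals of 37 and 41 lay under local backgrounds of 41 and 43. The probe was not well above background on either array, and no fold is given.

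**Figure D2:**
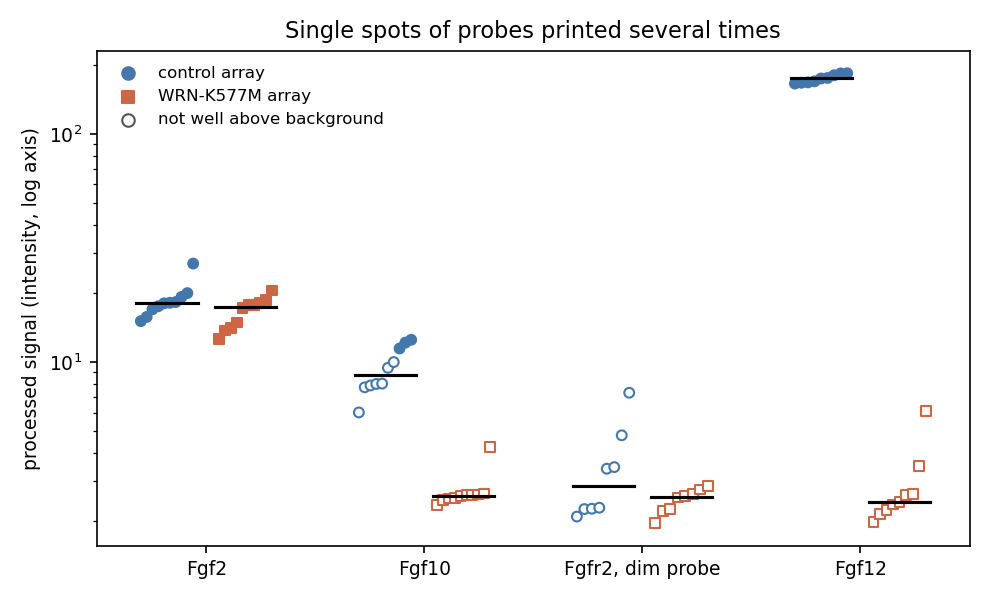
Processed signal (vertical axis, intensity on a log axis) of each spot of the 4 FGF family probes printed at 10 spots, on the control array (blue circles) and the WRN-K577M array (orange squares), with outlier spots left out, open symbols for spots not well above background and black bars at the medians. Fgf2 spots overlap between the arrays, Fgf10 spots are mostly below the detection call on both, the dim Fgfr2 probe is not above background, and Fgf12 spots between 166 and 184 in the control stand against 1.99 to 6.12 in the WRN-K577M heart.

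Fgf13, a homologous factor that binds voltage-gated sodium channels and microtubules, had 2 probes on either side of 0. A_55_P2139809 had signals of 332 and 252, levels of 0.38 and 0.27 and a log2 ratio of -0.11 (software error 0.20). A_55_P2139814 had signals of 146 and 125 and a ratio of 0.06 (0.21). Both ratios are smaller than their software errors. Of a list of 17 genes of sodium channels, calcium channels and other membrane-associated proteins, 16 were measured. Their median log2 ratio was -0.11, with 6 above and 10 below 0. None was at least 2-fold higher and 2 were at least 2-fold lower, the channel Scn10a (-1.18) and the calcium channel subunit Cacnb2 (-1.07), while Scn3a had 0.95 and the beta subunit Scn2b 0.57. Of all 14003 measured genes 484 were at least 2-fold lower. After normexp none of the listed genes was at least 2-fold lower, and with the mean of the probes 1 was.

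Receptor levels differed between the genes. Fgfr3, which binds FGF1, FGF9 and FGF18 and is best known for restraining growth of bone, was read by 2 probes that gave nearly the same ratio. A_55_P1996578 had signals of 854 in the control and 402 in the transgenic heart, at levels of 1.74 and 0.94, a log2 ratio of -0.80 (software error 0.20) or 1.74-fold lower. A_65_P06147 had signals of 61.0 and 29.2, at levels of -2.07 and -2.85, a ratio of -0.78 (0.25) or 1.71-fold lower. Both probes were lower by more than their errors. Among all measured genes 8.83% had a ratio at least as far from 0, and over the 1827 genes within 0.5 of its level the SD was 0.50. In the 10 alternatives Fgfr3 lay between -0.85 and -0.70, always below 0 and under 2-fold. Some of these only change the filter or shift the ratios of all genes alike, and they are no separate check.

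Fgfr1, the main FGF receptor of cardiomyocytes and fibroblasts, was near equal with each of its 3 probes. The brightest, A_55_P2057777, had signals of 1954 and 1576, levels of 2.93 and 2.91 and a log2 ratio of -0.02 (software error 0.20). A_55_P1967015 had signals of 404 and 361 and a ratio of 0.13, and A_55_P1967022 had 200 and 168 and a ratio of 0.04. Almost all measured genes, 94.7%, were at least as far from equal as Fgfr1, and its sign turned in 1 of 10 alternatives (highest value 0.05).

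Fgfr2, whose splice forms divide between epithelium and mesenchyme and whose epithelial form is the receptor of FGF10, had signals of 73.0 and 68.0 for the probe A_55_P2094881. Its levels were -1.81 and -1.62, a log2 ratio of 0.19 with a software error of 0.21, and 9 of 9 alternatives gave 0.13 to 0.21. The other probe, A_51_P432403, was printed at 10 spots, of which 2 were outliers. Its 8 remaining spots had signals of 2.10 to 7.33 in the control and 1.97 to 2.86 in the transgenic heart, and none was well above background on either array. Nothing in the sources used here says which splice forms the probes read.

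**Figure D3:**
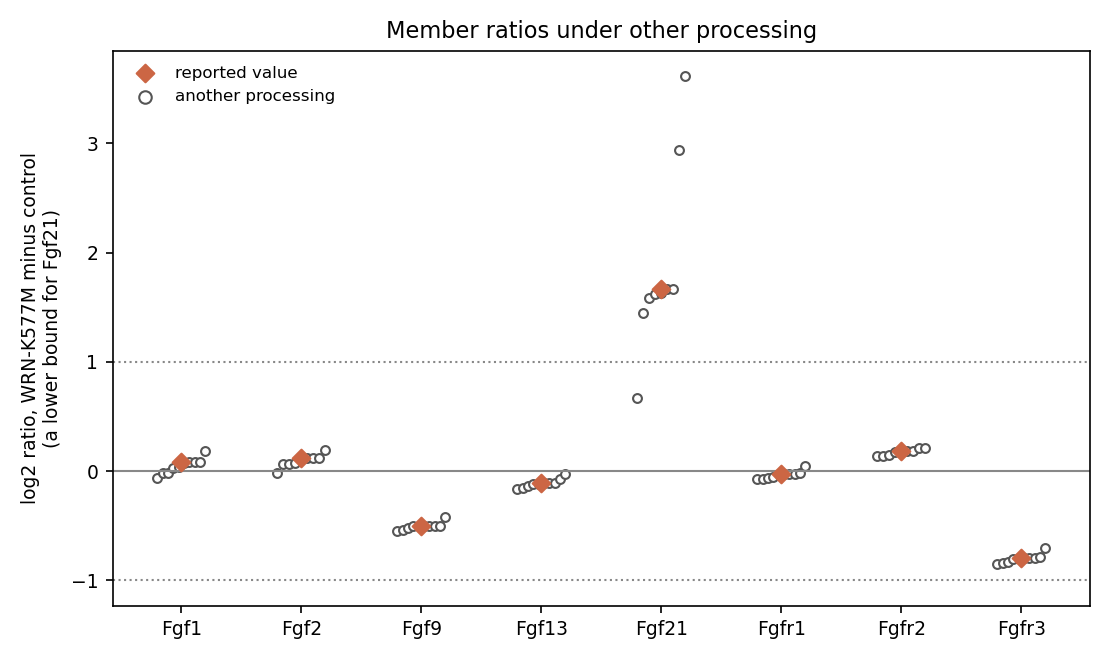
Log2 ratio (vertical axis, WRN-K577M minus control; a lower bound for Fgf21) of the 8 members with a value, as reported (orange diamonds) and under each other processing (open circles), with dotted lines at 2-fold. Fgfr3 and Fgf9 are below 0 throughout, Fgf21 runs from 0.67 after normexp to 3.62 with no filter (a plain ratio and not a bound), and Fgf1, Fgf2 and Fgfr1 straddle 0.

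Among the other 15 FGF ligands on the array, 7 were measured, with 3 above and 4 below 0, and 7 were not detected (Fgf3, Fgf4, Fgf5, Fgf15, Fgf17, Fgf20 and Fgf22). Their median log2 ratio was -0.28, and it was 0.15 after normexp and 0.39 with no filter on dim probes, so it has no settled sign. Fgf6, a ligand of skeletal muscle precursors, was the sole one measured at least 2-fold higher. Its signals were 28.6 in the control and 103 in the transgenic heart, a log2 ratio of 2.14 (software error 0.24), and 1.09 after normexp. Fgf6 was read by 1 spot per array, and with the stricter filter on dim probes it had a bound only. Next to it in the genome lies Fgf23, the phosphate hormone, whose 2 probes disagreed in brightness: one had signals of 12410 and 11846 (log2 ratio 0.22) and the other 2.23 and 2.31, not well above background. Fgf18, a ligand of FGFR3, was lower with both of its probes, from 729 to 322 (log2 ratio -0.89) and from 457 to 167 (-1.16). In the 10 alternatives it lay between -1.03 (the mean of both probes, past 2-fold) and -0.80 (after normexp). Of the remaining measured ligands, Fgf11 had a log2 ratio of -0.93 by its brighter probe and -0.19 by the other. Fgf7 had -0.52, Fgf14 -0.28 and Fgf8 0.37.

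Fgf12, the homologous factor related to Fgf13, had the largest ratio in the family as reported here. Of its 9 usable spots of one probe, all were well above background in the control, with signals of 166 to 184, and none in the transgenic heart, with signals of 1.99 to 6.12. A second probe had signals of 68.1 and 1.95, and the remaining probe was dim on both arrays. Fgf12 was at least 14.6-fold lower, rank 11 of the 740 genes that were well above background in the control only, and at least 3.20-fold lower after normexp. Atrial markers, with sums of 678 and 179, were lower in the same heart, and their part in the Fgf12 value was not tested. Fgf13, read by different probes, was near equal in the same samples. Of the receptors outside the members, Fgfr4 was at least 2.31-fold lower by its brighter probe (signals of 27.6 and 9.54), whereas its dimmer probe, above background in the control only, had 13.8 and 11.8 and a log2 ratio of 0.06. Over 9 alternatives Fgfr4 ran from -1.39 to -0.09. Fgfrl1, a receptor without the kinase domain, was near equal (-0.14).

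Of 20 co-receptors and FGF-binding proteins, 17 were measured, 4 above and 13 below 0, with a median log2 ratio of -0.27 (-0.11 after normexp). None was at least 2-fold higher and 3 were at least 2-fold lower: Flrt3, a membrane protein that binds FGF receptors (-1.15), and the heparan sulfate proteoglycans Gpc3 (-1.09) and Sdc1 (-1.04). Over all 14003 measured genes 484 were at least 2-fold lower, and 7335 were above and 6668 below 0. After normexp, whose added constant usually moves ratios of dim probes toward 0, none of the 17 reached 2-fold. Of the enzymes that build and trim heparan sulfate, 16 of 19 were measured. Over these the median was -0.03, and 0.02 after normexp, and Hpse, the heparanase (-1.08), was the sole one at least 2-fold different. After normexp and with the stricter filter none was at least 2-fold lower.

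Of 30 adaptors and kinases that act below the receptors, 27 were measured and none was at least 2-fold different, with 7 above and 20 below 0 and a median log2 ratio of -0.11. Among the larger ratios were those of the kinase Akt1 (-0.48), the lipid kinase subunit Pik3ca (0.39) and the adaptor Grb2 (-0.37). Genes known to be induced by FGF and ERK signalling did not differ in 1 direction. Of 17 measured of 21, 10 were above and 7 below 0, with a median of 0.12. At least 2-fold higher were the ERK phosphatase Dusp4 (1.93) and the transcription factors Etv5 (1.87) and Myc (1.23), and Fosl1, an AP-1 subunit, was at least 2.48-fold higher. The immediate-early factor Egr1 (-1.44) was at least 2-fold lower. Dusp6, the ERK phosphatase most used as an FGF readout, had -0.68, and the feedback inhibitors Spry1, Spry2 and Spry4 had 0.12, -0.33 and -0.34. After normexp 1 gene of this list was at least 2-fold higher and 1 lower.

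**Figure D4:**
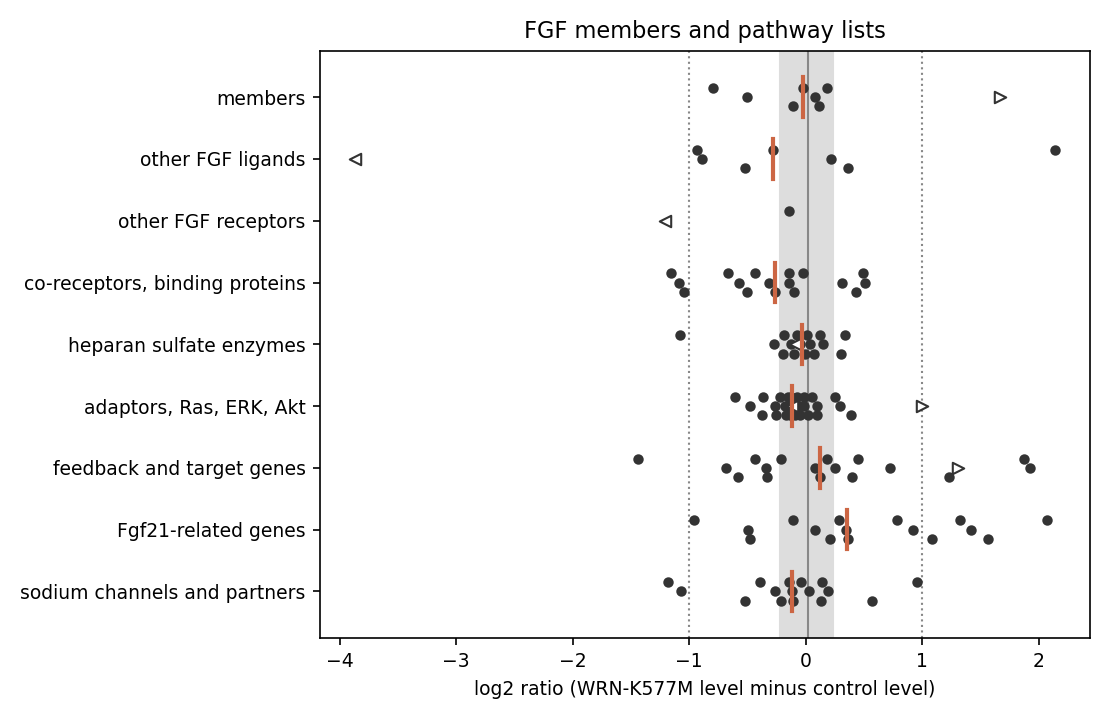
Log2 ratio (horizontal axis, WRN-K577M minus control) of each measured gene (points) and each gene with a bound (open triangles pointing away from 0) in the members and 8 lists of the pathway, with orange bars at list medians, a grey band from the lower to the upper quartile of all 14003 measured genes (-0.22 to 0.24), a grey line at their median and dotted lines at 2-fold. The list around Fgf21 has its median to the right of the band at 0.35, the co-receptors and the other ligands to the left of it at -0.27 and -0.28, and the adaptors and kinases lie close to 0.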

How the data were processed

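Cy3-labelled RNA of 1 heart sample per group was hybridised to 2 arrays on the same slide and scan. The intensity values are scanner output, per the file headers, of the software Agilent Feature Extraction (version 11.5.1.1): the processed signal is background-subtracted and not scaled between arrays, and raw spot signals, local backgrounds and the software's other flags are also given. The deposited series matrix holds the authors' intensity values on a linear scale, each column the processed signal times a single factor (4.12 and 4.86). Control spots and 257 spots that were outliers on either array were left out, and no spot was saturated. A probe printed several times was averaged on the log2 scale and counted as well above background when most of its spots were. On the control array 55.2% of probes were, on the other 52.9%. Accessions, versions removed, were named through a RefSeq table of GRCm38.p6 (22544 of 23871 matched). The array design uses mm9, per the file headers, and probe positions are not given; those of promoter sequences are RefSeq's, on GRCm38.p6, whose table also gave gene order. The rule for named genes took all members, the FGF relatives at least 2-fold different, and up to 4 genes of each pathway list and 2 of each marker list with the largest ratios. Others were named after their values were seen. A few genes that it would name are left out here. The members and the lists were chosen with earlier results of these data known. The software error and the spread between spots cover measurement only; precision is limited by how few arrays there are. Alternatives were normexp (offset 50), quantile and cyclic loess normalization, scaling on detected probes or on the median, no filter, a stricter filter, the deposited matrix, the mean of a gene's probes and thresholds of 1.5-fold and 3-fold. Python 3.11.15, numpy 2.4.6, pandas 2.3.3, matplotlib 3.10.9, R 4.3.3 and limma 3.58.1 were used, and the counting was tested on simulated data.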

Additional observations from a re-analysis of the deposited data

How the results depend on the processing

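With 1 array per group no replicate could be left out. No paired analysis was possible because each group holds 1 sample. The number of members at least 2-fold different, bounds included, was 1 as reported (Fgf21), 0 after normexp and with the stricter filter on dim probes, 2 with no filter (Fgf10 and Fgf21, both ratios to a spot near background) and 2 at 1.5-fold. The number of all measured genes at least 2-fold different was 755 as reported, 312 after normexp, 363 with the stricter filter, 2320 with no filter, 2228 at 1.5-fold and 217 at 3-fold, and between 736 and 771 in the other alternatives. With no filter 1240 were higher and 1080 lower, against 271 and 484 as reported, and the median of all genes was 0.12. Fgf9 and Fgfr3 stayed below 0 and Fgfr2 above 0 wherever they were measured. Settings that change only the filter left these values as reported. Scaling on detected probes or on the median and the deposited matrix shift the ratios of all genes by the same amount. Neither kind is a separate check. Fgf1, Fgf2 and Fgfr1 changed sign between alternatives with values near 0. Signal over background limits Fgf2, Fgf10, Fgf16, Fgf21 and the dim Fgfr2 probe.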

Other observations

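Other cell markers on the same arrays had the following values, which have no replicate check. Of all 14003 measured genes 484 were at least 2-fold lower and 6668 were below 0. Of 12 macrophage markers 11 were below 0 and 5 at least 2-fold lower, Ccr2 most (-1.40), with a median of -0.68. After normexp 1 macrophage marker was at least 2-fold lower. Of 13 measured adipocyte markers 5 were at least 2-fold lower, Car3 most (-4.20), with a median of -0.59, although the summed signal was higher in the WRN-K577M heart (254 against 198). The adipocyte median was -0.06 after normexp and 0.29 over 8 genes with the stricter filter, so it has no settled sign. Neutrophil and erythroid markers had medians of -2.69 over 4 and -2.76 over 5 genes, with S100a9 at -4.98 and Alas2 at -2.97. Smooth muscle and pericyte markers had a median of 0.24 over 12 genes with Cnn1 at -1.26, epicardial and mesothelial markers one of 0.20 over 9 genes with Wt1 at -0.77, and Schwann and neural markers one of -0.25 over 8 genes with Dbh at -2.73. Of the B cell markers 2 were measured (Cd79b -0.86 and Cd22 0.35).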
